A study of Mus musculus with 12 samples.

Results

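The 9 genes described are the chemokine ligands Ccl1, Ccl3, Ccl4, Ccl5, Ccl9, Ccl17, Ccl22, Xcl1 and Cxcl10. Each was taken by its symbol from 1 probe set of the table of array values, and all 9 were found among the 23185 probe sets that pair with 1 gene. Their expression was measured in splenic CD4+ T cells of mice on 12 whole-transcript arrays, 3 for each of 4 groups. The groups were activated cells of genotype Lck-Cre+;Ikzf-/- (Cre+ activated), activated cells of genotype Lck-Cre-;Ikzf+/+ (Cre- activated), and the same genotypes at baseline (Cre+ baseline, Cre- baseline, labelled 0 hours). Activated cells had 24 hours of culture with antibody to CD3 bound to the plate and soluble antibody to CD28, which stand in for an antigen signal and its costimulus. The Cre recombinase was driven by Lck, a promoter of the T lineage, and Ikzf1 encodes Ikaros, a zinc finger transcription factor that represses or activates genes in lymphocytes. The strain, age and sex of the mice are not given in the labels. Each comparison asks how the ligands differed between activated and baseline cells of a genotype, or between genotypes in a state. Cre itself and Ikaros loss cannot be told apart, because mice with Cre and intact Ikaros were not among the groups. Culture and activation cannot be told apart either, since no cells were cultured without the antibodies.

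Chemokines are small secreted proteins that guide leukocytes through receptors on the cell surface. CCL17 and CCL22 bind CCR4 and attract regulatory, Th2 and skin-homing T cells, and CCL1 binds CCR8. CCL3, CCL4 and CCL5 are inflammatory ligands that attract T cells and monocytes, CCL9 binds CCR1, and XCL1 (lymphotactin) attracts XCR1-bearing dendritic cells. CXCL10 is induced by interferon and attracts activated T cells through CXCR3. T cells are a known source of CCL1, CCL3, CCL4, CCL5 and XCL1. CCL17, CCL22, CCL9 and CXCL10 are also known as products of dendritic cells, B cells or macrophages.

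Values are log2 expression from the authors' RMA, and 1 unit is a 2-fold change. The medians of the arrays lay between 4.04 and 4.17. The table holds no measure of background, and a fold against a reading near that level compares array readings, not amounts of transcript. Ikzf1 read 10.14, 9.93 and 9.89 in Cre+ activated and 10.03, 10.22 and 10.08 in Cre- activated cells, and 10.66, 10.29 and 10.13 in Cre+ baseline and 10.54, 10.52 and 10.54 in Cre- baseline cells. The genotype difference of Ikzf1 was -0.13 after activation and -0.17 at baseline (SE 0.13 each, limma adjusted p = 0.993 and 0.968). No source used here gives the deleted part of the gene, and Ikzf1 therefore did not check the genotype labels. Cd4 was read at 11.03 ± 0.19 in Cre+ activated, 10.79 ± 0.27 in Cre- activated, 11.53 ± 0.06 in Cre+ baseline and 11.23 ± 0.10 in Cre- baseline cells (SD, n = 3), far above the array medians. The mean of 8 CD4 T cell markers ran from 9.15 to 9.78 in Cre+ activated, 9.30 to 9.78 in Cre- activated, 9.86 to 9.98 in Cre+ baseline and 9.92 to 10.01 in Cre- baseline cells, and that of 2 CD8 T cell markers from 6.53 to 7.13, 5.97 to 7.15, 6.73 to 7.33 and 6.57 to 6.98 in the same groups. The mean of 7 B cell markers ran from 5.65 to 7.34 in Cre+ activated and from 4.95 to 6.57 in Cre- activated cells, and from 7.93 to 8.08 in Cre+ baseline and 8.13 to 8.37 in Cre- baseline cells, above the array medians in every group. In these bulk samples, fewer cells of a type and less RNA per cell cannot be told apart. Within groups, Pearson's r between arrays over all genes was 0.992 to 0.993 for baseline and 0.972 to 0.994 for activated cells. By Xist and Eif2s3y, 1 of the 3 arrays was of a female in the Cre+ activated, 2 in the Cre- activated, 2 in the Cre+ baseline and 1 in the Cre- baseline group. The labels do not state whether a group's arrays came from separate mice. By these readings each group held both sexes and so did not come from 1 mouse, but arrays of the same sex may share a mouse. Each p-value covers the spread of these samples alone, which may be technical in part.

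Several of the genes lie beside other chemokine genes, and RefSeq promoter sequence (build GRCm38.p6) was at hand for 7 of the 9. In RefSeq order Ccl5, Ccl9, Ccl6, Ccl3 and Ccl4 are consecutive protein-coding genes, and so are Ccl22, Cx3cl1 and Ccl17. The annotated range of Ccl4 overlaps that of Ccl3, and which probes carry each value is not given in the sources used here. The 250 bases before the start of 5 genes are shown, because these genes stand for the responses described. They are the widest rises (Ccl22, Ccl3), the widest genotype differences after activation (Ccl1 and Ccl9) and the interferon-inducible ligand (Cxcl10). Of the genotype differences, that of Ccl1 passed and that of Ccl9 did not. The windows are chr8:94745434-94745683, plus strand for Ccl22, chr11:83649379-83649628, minus strand for Ccl3, chr11:82179813-82180062, minus strand for Ccl1, chr11:83578637-83578886, minus strand for Ccl9 and chr5:92348890-92349139, minus strand for Cxcl10. Each is written 5′ to 3′ towards the gene, with matches on either strand in capitals.
Ccl22: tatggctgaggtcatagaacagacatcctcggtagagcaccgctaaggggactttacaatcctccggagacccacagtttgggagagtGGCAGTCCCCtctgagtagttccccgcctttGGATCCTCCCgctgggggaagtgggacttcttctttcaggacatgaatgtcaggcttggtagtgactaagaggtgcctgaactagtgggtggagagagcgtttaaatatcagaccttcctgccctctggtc
Ccl3: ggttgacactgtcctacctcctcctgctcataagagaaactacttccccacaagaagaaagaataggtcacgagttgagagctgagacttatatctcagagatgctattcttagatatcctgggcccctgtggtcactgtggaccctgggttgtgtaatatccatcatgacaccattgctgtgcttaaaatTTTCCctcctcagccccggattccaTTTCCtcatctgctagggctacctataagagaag
Ccl1: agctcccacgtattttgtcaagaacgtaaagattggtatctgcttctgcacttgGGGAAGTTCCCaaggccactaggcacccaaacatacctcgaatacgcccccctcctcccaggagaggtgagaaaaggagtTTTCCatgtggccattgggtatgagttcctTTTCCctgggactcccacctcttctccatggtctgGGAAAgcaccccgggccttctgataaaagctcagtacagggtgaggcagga
Ccl9: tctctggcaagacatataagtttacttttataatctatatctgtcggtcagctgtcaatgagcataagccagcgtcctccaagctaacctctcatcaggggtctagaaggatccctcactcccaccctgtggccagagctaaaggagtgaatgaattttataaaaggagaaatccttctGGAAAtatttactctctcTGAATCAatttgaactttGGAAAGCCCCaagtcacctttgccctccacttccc
Cxcl10: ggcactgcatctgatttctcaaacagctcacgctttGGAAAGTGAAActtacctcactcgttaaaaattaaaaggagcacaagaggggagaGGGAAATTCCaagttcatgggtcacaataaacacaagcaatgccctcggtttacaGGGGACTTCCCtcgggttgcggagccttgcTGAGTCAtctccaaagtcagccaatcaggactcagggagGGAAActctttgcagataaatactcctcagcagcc
The capitals mark an AP-1 motif (TGANTCA), a kappaB-like motif (GGG and CC with 5 bases of any kind between), an ISRE-like motif (GAAA 2 times with 2 bases of any kind between) and an NFAT core (GGAAA), the letters bound by factors downstream of the T cell receptor, of costimulation and of interferon. Matches of different motifs may overlap, as the NFAT core and the ISRE-like motif do in Cxcl10. Positions are counted back from the transcript start of the RefSeq promoter entry, so that the base just before it is -1. For Ccl17 that start lies inside the annotated range of the gene, and for the other 6 it is the upstream end of that range. An AP-1 match stood in Cxcl10 at -74 and in Ccl9 at -53, and not in these windows of Ccl1, Ccl3, Ccl17, Ccl22 or Xcl1. The ISRE-like letters stood in Cxcl10 alone of the 7, at -213. The kappaB-like letters matched in Ccl1, Ccl9, Ccl22 and Cxcl10, and GGAAA matched in 6 of the 7, all but Ccl22. Of 32851 promoter entries of the same length, 6.75% held the AP-1 motif, 45.8% the kappaB-like motif, 2.98% the ISRE-like motif and 55.6% the NFAT core. The core TGGGAA that Ikaros can bind matched in Ccl1, at -190 and -53, and in the window of Ccl17, inside its annotated range, at -133, and in 21.6% of all entries. A match describes letters and not a bound site.

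Most of these ligands were higher in activated than in baseline cells of both genotypes. In Cre+ cells 8 of the 9 rose and none fell at a limma adjusted p under 0.05, where 10.1% of all genes tested rose and 10.6% fell (20.7% in all). In Cre- cells 6 rose (Ccl1, Ccl3, Ccl4, Ccl22, Xcl1 and Cxcl10) against 9.39% of all genes, and 1 fell (Ccl5) against 9.1%. The median log2 difference of the 9 was 3.08 in Cre+ and 2.50 in Cre- cells, against -0.02 and 0.00 over all genes. The 3 activated arrays lay above the 3 baseline arrays for 8 ligands in Cre+ cells (17.3% of all genes) and for 6 in Cre- cells (17.7%). Among 23185 differences ordered from the highest, Ccl22 was number 2 in Cre+ and number 1 in Cre- cells, Ccl3 was number 3 in both, and Ccl1 was number 6 in Cre+ and 19 in Cre- cells. These numbers describe the members and are no test of them.

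**Figure D1:**
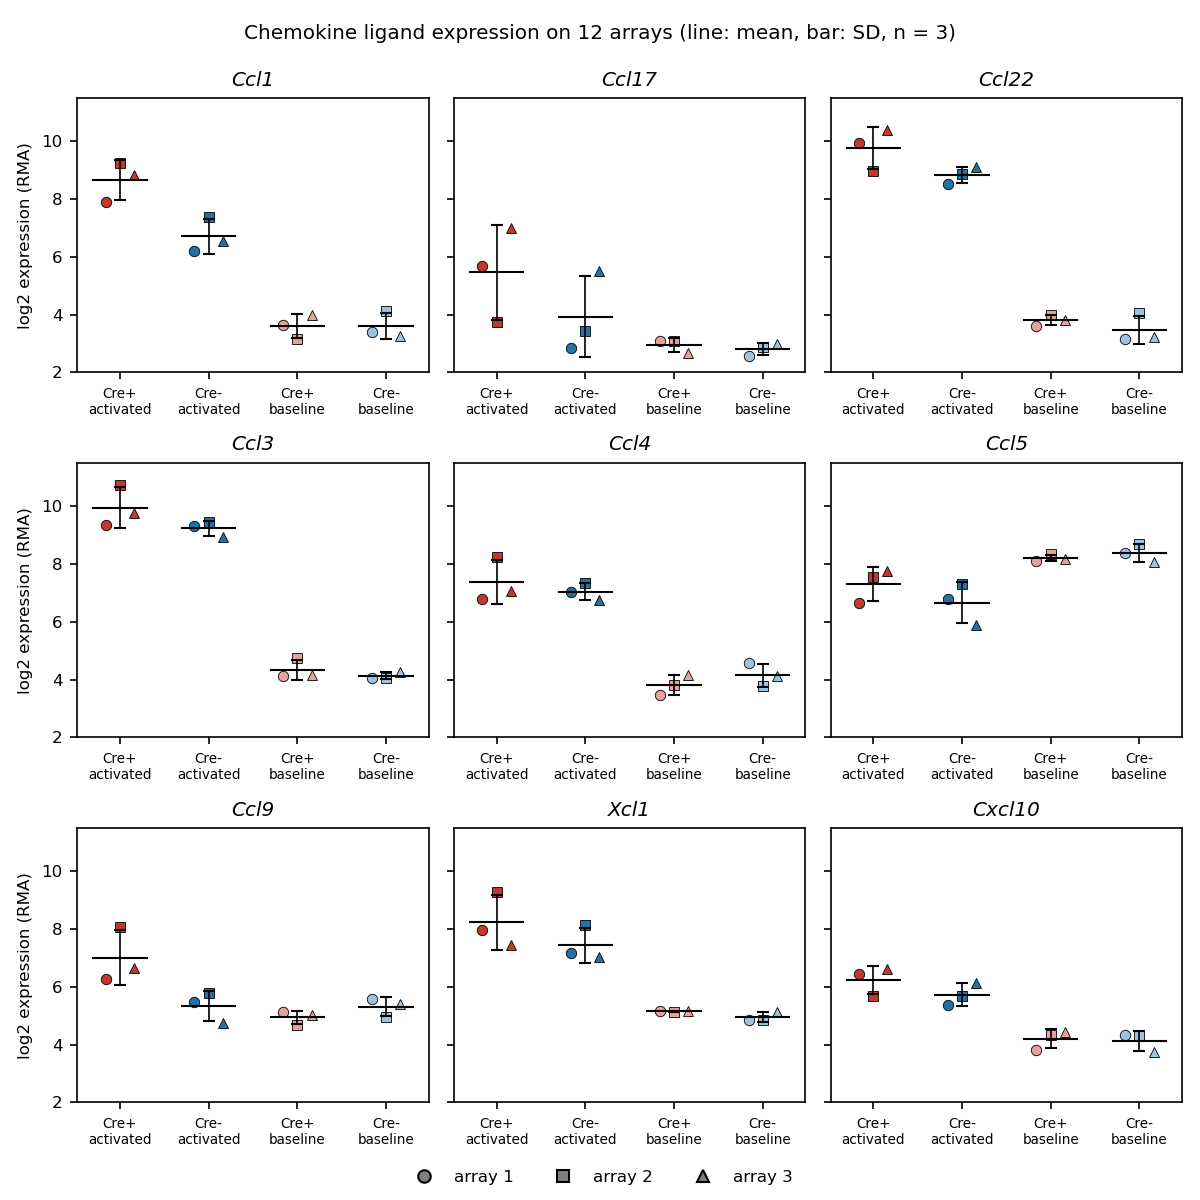
Log2 expression (y axis) of each ligand on every array, by group along the x axis, with the mean and SD of 3 arrays as a line and bar and the symbol giving the array number. Ccl22, Ccl3 and Ccl1 stand far above baseline in activated cells, Ccl5 stands below it, and the activated arrays of Ccl17 spread widely.

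The CCR4 ligand Ccl22 showed the largest response. It read 9.94, 8.97 and 10.41 on the 3 Cre+ activated arrays, against 3.62, 3.97 and 3.82 on the Cre+ baseline arrays. In Cre- cells it read 8.52, 8.88 and 9.10 after activation, against 3.17, 4.04 and 3.23 at baseline. Every activated array stood at least 4 units above every baseline array of its genotype. The rise was 62.5-fold in Cre+ cells, 5.97 ± 0.33 on the log2 scale (SE, limma adjusted p = 5.9e-07), and 40.9-fold in Cre- cells, 5.35 ± 0.33 on the log2 scale (SE, limma adjusted p = 1.6e-06).

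Ccl17, which lies close to Ccl22 with Cx3cl1 between them and whose product binds the same receptor, answered unevenly. It read 5.69, 3.73 and 7.0 on the Cre+ activated arrays, against 3.09, 3.08 and 2.66 on the Cre+ baseline arrays. It read 2.83, 3.44 and 5.50 on the Cre- activated arrays, against 2.57, 2.87 and 2.99 on the Cre- baseline arrays. In Cre+ cells all activated arrays were higher, with array 2 only slightly so. In Cre- cells array 3 was high and array 1 fell within the baseline range. The rise in Cre+ cells was 5.78-fold, 2.53 ± 0.75 on the log2 scale (SE, limma adjusted p = 0.0323), and the Cre- difference of 1.11 (95% interval -0.52 to 2.75) did not pass (limma adjusted p = 0.376). The Cre+ call was lost without Cre+ activated array 1 (difference 2.42, limma adjusted p = 0.0989) or 3 (1.77, 0.128), without Cre+ baseline array 1, 2 or 3 (limma adjusted p = 0.0742, 0.0758 and 0.0981) and with sex as a covariate (0.0576). Without Cre+ activated array 2 the difference of Ccl17 was 3.40.

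Ccl1, the CCR8 ligand known as a product of activated T cells, read 7.89, 9.26 and 8.83 in Cre+ activated cells, against 3.65, 3.15 and 3.97 in Cre+ baseline cells. It read 6.20, 7.38 and 6.56 in Cre- activated cells, against 3.40, 4.11 and 3.27 in Cre- baseline cells. Both activated groups stood clear of baseline, and the Cre+ group stood above the Cre- group. Ccl1 rose 33.6-fold in Cre+ cells, 5.07 ± 0.38 on the log2 scale (SE, limma adjusted p = 6.1e-06), and 8.68-fold in Cre- cells, 3.12 ± 0.38 on the log2 scale (SE, limma adjusted p = 0.000225).

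Of the inflammatory ligands Ccl3, Ccl4 and Ccl5, Ccl3 and its neighbour Ccl4 rose and Ccl5 did not. Ccl3 read 9.36, 10.75 and 9.75 in Cre+ activated cells, against 4.12, 4.74 and 4.15 in Cre+ baseline cells. It read 9.30, 9.45 and 8.94 in Cre- activated cells, against 4.06, 4.06 and 4.27 in Cre- baseline cells. Cre+ activated array 2 was the highest of all 12 for Ccl3, and no activated array came near a baseline one. The rise of Ccl3 was 49.0-fold in Cre+ cells, 5.61 ± 0.30 on the log2 scale (SE, limma adjusted p = 5.2e-07), and 34.4-fold in Cre- cells, 5.10 ± 0.30 on the log2 scale (SE, limma adjusted p = 1.1e-06).

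Ccl4 read 6.79, 8.25 and 7.08 in Cre+ activated cells, against 3.46, 3.82 and 4.17 in Cre+ baseline cells. It read 7.03, 7.34 and 6.76 in Cre- activated cells, against 4.57, 3.77 and 4.12 in Cre- baseline cells. The activated groups overlapped each other and neither overlapped baseline. The rise was 11.8-fold in Cre+ cells, 3.56 ± 0.34 on the log2 scale (SE, limma adjusted p = 3.3e-05), and 7.40-fold in Cre- cells, 2.89 ± 0.34 on the log2 scale (SE, limma adjusted p = 0.000178).

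Ccl5 (RANTES), which memory T cells hold ready before restimulation, moved the other way. It read 6.65, 7.54 and 7.74 in Cre+ activated cells, against 8.12, 8.33 and 8.19 in Cre+ baseline cells. It read 6.79, 7.30 and 5.89 in Cre- activated cells, against 8.37, 8.69 and 8.08 in Cre- baseline cells. All activated arrays lay below all baseline arrays of their genotype, as they did for 19.3% of all genes in Cre+ and 17.4% in Cre- cells. Ccl5 fell in Cre- cells, by a difference of -1.72 ± 0.34 on the log2 scale (SE, limma adjusted p = 0.00474), while the Cre+ difference of -0.90 (SE 0.34) missed the threshold (limma adjusted p = 0.0888). The Cre+ difference passed in a fit of the Cre+ arrays alone (limma adjusted p = 0.0498), without Cre- activated array 3 (0.0240), without the activated arrays numbered 3 of both genotypes (-1.11, 0.00995) and with array weights (-1.37, 0.00106). Without Cre+ activated array 1 it was -0.57. Marker means of NK cells, which also express Ccl5, ran from 4.27 to 4.67 in Cre+ activated cells, against 4.75 to 4.95 in Cre+ baseline cells, and from 3.82 to 4.05 in Cre- activated cells, against 4.96 to 5.30 in Cre- baseline cells. Of the 6 markers, 3 fell and 1 rose in Cre+ cells, where 10.6% of all genes fell and 10.1% rose. In Cre- cells 5 fell, against 9.1% of all genes. The exception was Eomes, a transcription factor that activated T cells can express too, which rose in Cre+ cells (2.57 ± 0.47 on the log2 scale, SE, limma adjusted p = 0.00286) and differed by 1.22 in Cre- cells (limma adjusted p = 0.102). The part of NK cells in the fall of Ccl5 was not tested.

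Ccl9, a CCR1 ligand that lies beside Ccl5 and is best known from myeloid cells of the mouse, responded in Cre+ cells. It read 6.27, 8.08 and 6.65 in Cre+ activated cells, against 5.13, 4.69 and 5.02 in Cre+ baseline cells. It read 5.48, 5.77 and 4.75 in Cre- activated cells, against 5.57, 4.94 and 5.41 in Cre- baseline cells. The Cre+ activated arrays stood above all others, and the Cre- groups overlapped. Ccl9 rose 4.15-fold in Cre+ cells, 2.05 ± 0.40 on the log2 scale (SE, limma adjusted p = 0.00400), and the Cre- difference was 0.03 (95% interval -0.85 to 0.91, limma adjusted p = 0.976). The mean of 9 myeloid markers ran from 3.81 to 3.93 in Cre+ activated and from 3.54 to 3.68 in Cre- activated cells, below every array median. At baseline this mean ran from 5.31 to 5.99 in Cre+ and from 5.06 to 5.46 in Cre- cells. Of the 9 markers, Itgam alone passed between baseline genotypes (limma adjusted p = 0.000335). Itgam read 8.49 ± 0.23 in Cre+ baseline and 5.77 ± 0.42 in Cre- baseline cells (SD, n = 3), which raised the Cre+ baseline mean. The median baseline difference of the 9 was -0.02.

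Xcl1 (lymphotactin) read 7.97, 9.27 and 7.44 in Cre+ activated cells, against 5.17, 5.12 and 5.16 in Cre+ baseline cells. It read 7.16, 8.14 and 7.02 in Cre- activated cells, against 4.85, 4.84 and 5.14 in Cre- baseline cells. Array 2 was the highest of its activated group in both genotypes, and the baseline arrays lay close together. Xcl1 rose 8.44-fold in Cre+ cells, 3.08 ± 0.39 on the log2 scale (SE, limma adjusted p = 0.000276), and 5.64-fold in Cre- cells, 2.50 ± 0.39 on the log2 scale (SE, limma adjusted p = 0.00119).

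Cxcl10 read 6.43, 5.67 and 6.61 in Cre+ activated cells, against 3.82, 4.33 and 4.44 in Cre+ baseline cells. It read 5.35, 5.67 and 6.14 in Cre- activated cells, against 4.34, 4.31 and 3.74 in Cre- baseline cells. The activated groups overlapped each other, and each stood at least 1 unit above its own baseline. Cxcl10, whose upstream window holds the ISRE-like letters shown above, rose 4.12-fold in Cre+ cells, 2.04 ± 0.28 on the log2 scale (SE, limma adjusted p = 0.000442), and 3.02-fold in Cre- cells, 1.59 ± 0.28 on the log2 scale (SE, limma adjusted p = 0.00236).

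**Figure D2:**
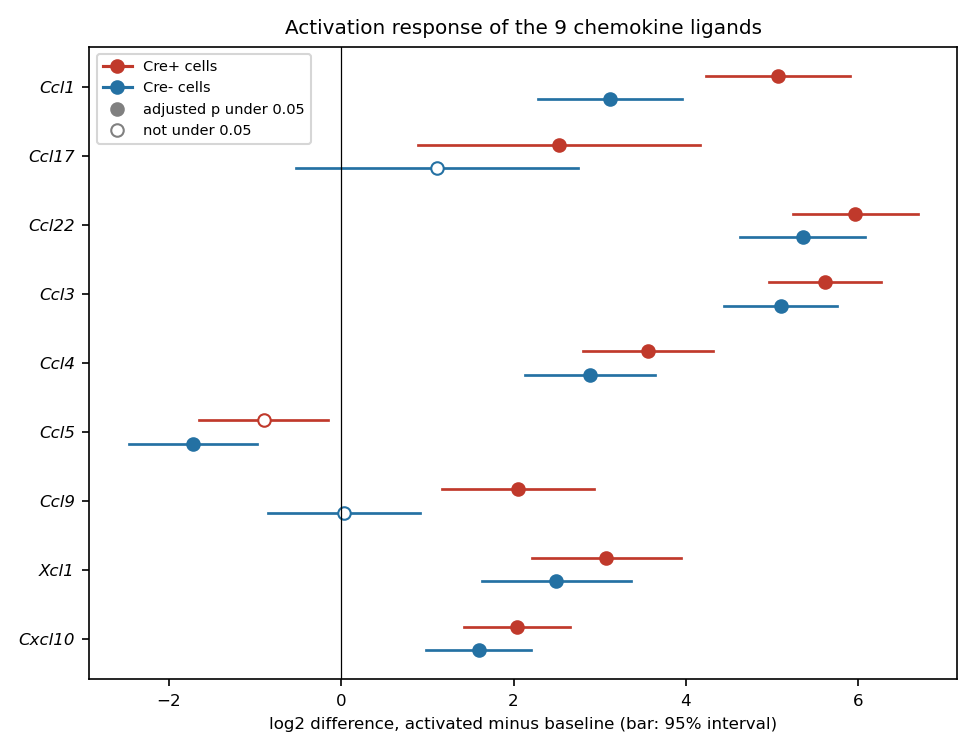
Log2 difference, activated minus baseline (x axis), of each ligand (y axis) in Cre+ and Cre- cells, with 95% intervals as bars and filled points for a limma adjusted p under 0.05. Ccl22, Ccl3, Ccl1, Ccl4, Xcl1 and Cxcl10 are filled and above 0 in both genotypes, Ccl9 and Ccl17 in Cre+ cells, and Ccl5 lies below 0 in both.

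After activation all 9 ligands read higher on average in Cre+ than in Cre- cells, and Ccl1 alone passed. Of all genes tested, 46.3% had a positive difference and 0.63% passed as higher. The median of the 9 was 0.79, against -0.01 over all genes. Both activated groups share their arrays across the 9 genes, so the common sign is not 9 separate observations. At an unadjusted p under 0.05 there were 4 ligands, Ccl1, Ccl3, Ccl9 and Ccl22, all higher in Cre+ cells, where 7.51% of all genes reached that value and 4.06% did so as higher. The 9 were chosen with earlier results of these data known. The counts here and in the later comparisons therefore describe them and are no test of them.

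Ccl1 averaged 8.66 ± 0.70 in Cre+ activated and 6.71 ± 0.60 in Cre- activated cells (SD, n = 3). The Cre+ arrays all stood above the Cre- arrays. Such a separation upwards was seen for 5.25% of all genes. Ccl1 was 3.85-fold higher in Cre+ cells, 1.95 ± 0.38 on the log2 scale (SE, limma adjusted p = 0.0453), with a 95% interval of 1.11 to 2.78. The direction held in all 24 alternatives, and the call was lost in 15 of them. All 12 arrays share 1 estimate of the spread, so baseline arrays bear on it too. Leaving out 1 array raised the limma adjusted p of Ccl1 to 0.103 and 0.146 (Cre+ activated arrays 2 and 3), 0.186 and 0.0679 (Cre- activated arrays 1 and 3), 0.0800, 0.0604 and 0.0638 (Cre+ baseline arrays) and 0.0786, 0.0528 and 0.0705 (Cre- baseline arrays). The call was also lost with median centring (0.0516), quantile normalization (0.0512), the activated arrays alone (0.340), array weights (difference 1.02, 0.0645) and without the activated arrays numbered 3 (0.158).

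Ccl9 averaged 7.0 ± 0.96 in Cre+ activated and 5.33 ± 0.53 in Cre- activated cells, and its groups did not overlap either. The log2 difference of Ccl9 was 1.67 (95% interval 0.79 to 2.55), which did not pass over all genes (limma adjusted p = 0.121), and it was 1.13 without Cre+ activated array 2. Ccl17 differed by 1.55 (-0.09 to 3.18), the widest interval of the 9. The other differences were 0.94 for Ccl22, 0.79 for Xcl1, 0.72 for Ccl3, 0.65 for Ccl5, 0.51 for Cxcl10 and 0.33 for Ccl4, with overlapping groups. These differences rested in part on single arrays. Without Cre+ activated array 2, Xcl1 differed by 0.27, Ccl3 by 0.32, Ccl17 by 2.42 and Cxcl10 by 0.80. Without Cre+ activated array 3, Ccl17 differed by 0.79, Ccl22 by 0.62, Cxcl10 by 0.33 and Ccl5 by 0.43. Ccl5 differed by 0.26 without Cre- activated array 3 and by 0.98 without Cre+ activated array 1. Leaving out Cre- activated array 1 gave a Ccl17 difference of 1.0 and a Cxcl10 difference of 0.33. Ccl17 differed by 2.34 without Cre- activated array 3. Ccl22 passed without Cre+ activated array 2 (1.34, limma adjusted p = 0.0481) and with array weights (1.09, 0.00901). With array weights Ccl17 (2.24, limma adjusted p = 0.00379) and Cxcl10 (0.76, 0.0244) passed too, while Ccl4 and Ccl5 turned to -0.29 and -0.27. Ccl4 was also negative, at -0.10, without Cre+ activated array 2.

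**Figure D3:**
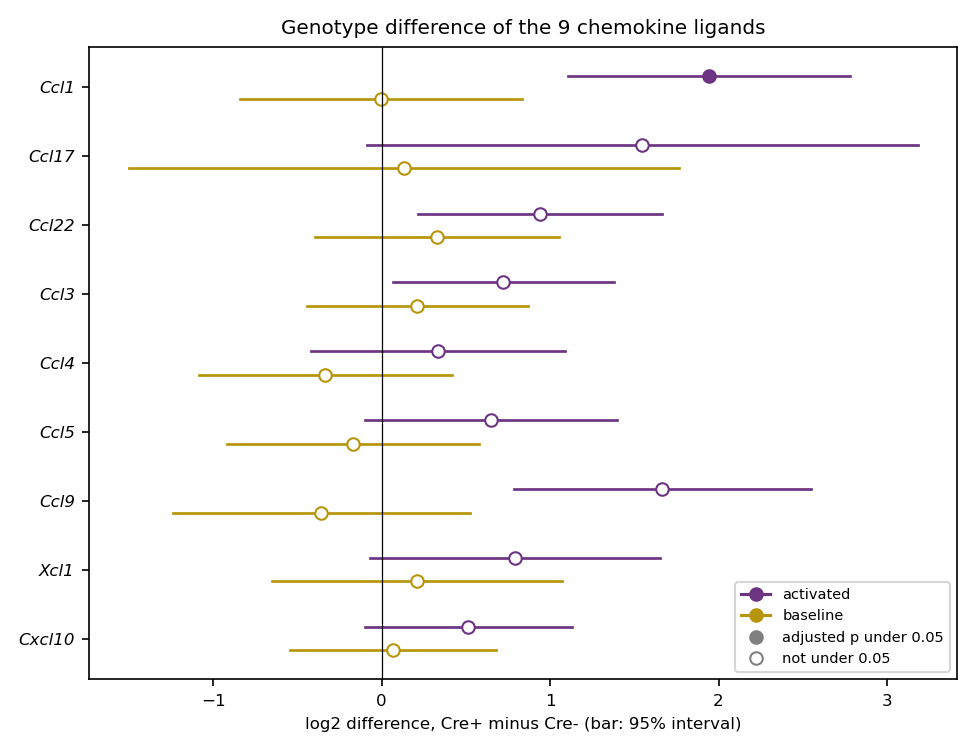
Log2 difference, Cre+ minus Cre- (x axis), of each ligand (y axis) after activation and at baseline, with 95% intervals as bars and filled points for a limma adjusted p under 0.05. The points for activated cells lie right of 0 for all 9 ligands, with Ccl1 filled, and the baseline intervals all include 0.

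At baseline none of the 9 differed between genotypes by limma, none had an unadjusted p under 0.05 (6.93% of all genes did), and no pair of groups was separate (0.552% of all genes passed, 8.82% were separate upwards and 7.42% downwards). The differences ran from -0.36 for Ccl9 to 0.33 for Ccl22, with a median of 0.07. Ccl1 averaged 3.59 ± 0.41 in Cre+ baseline and 3.60 ± 0.45 in Cre- baseline cells, a difference of -0.01 (95% interval -0.84 to 0.83). The widest interval was that of Ccl17, -1.50 to 1.77.

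For the difference of the activation responses, Cre+ minus Cre-, all 9 estimates were positive and none passed by limma (2 genes in all passed, 0.00863% of those tested). At an unadjusted p under 0.05 there were 2 ligands, against 4.7% of all genes, or 2.39% as higher. Ccl9 stood at 2.02 (SE 0.57, limma adjusted p = 0.712) and Ccl1 at 1.95 (SE 0.54, limma adjusted p = 0.705). The other 7 ran from 0.45 for Cxcl10 to 1.42 for Ccl17. That Ccl9 and Ccl17 passed in Cre+ and not in Cre- cells, and Ccl5 in Cre- and not in Cre+ cells, is therefore not shown to be a difference between genotypes. The responses share no arrays with each other, but both use the same estimate of each gene's spread.

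The order of the 4 group means was Cre+ activated, Cre- activated, then the baseline groups for 8 ligands, with overlapping baseline groups. The activated groups overlapped too, except for Ccl1 and Ccl9. For Ccl9 the Cre- activated mean of 5.33 lay within the spread of the Cre- baseline mean of 5.30. For Ccl5 the activated groups came last, Cre+ activated at 7.31 ± 0.58 and Cre- activated at 6.66 ± 0.71, against Cre+ baseline at 8.21 ± 0.11 and Cre- baseline at 8.38 ± 0.31 (SD, n = 3).

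Within the 6 activated arrays the ligands did not share an order. Ccl17 and Ccl22 had the same order, from the highest Cre+ array 3, Cre+ array 1, Cre- array 3, Cre+ array 2, Cre- array 2, Cre- array 1. The mean of the 7 B cell markers, at 6.63, 5.65 and 7.34 on Cre+ activated arrays 1, 2 and 3 and at 4.95, 5.37 and 6.57 on Cre- activated arrays 1, 2 and 3, had this order on 6 of 6 arrays. Cxcl10 matched that order on 4 of 6 arrays, with Cre+ array 2 and Cre- array 2 exchanged at nearly equal readings. By contrast, Cre+ array 2 was the highest Cre+ array for Ccl1, Ccl3, Ccl4, Ccl9 and Xcl1, and Cre- array 2 the highest Cre- array for these 5 and Ccl5. The mean of the 2 CD8 T cell markers was also highest on array 2 in both genotypes. It read 6.93, 7.13 and 6.53 on Cre+ activated arrays 1, 2 and 3, and 6.56, 7.15 and 5.97 on the Cre- ones. That of the 9 myeloid markers read 3.82, 3.81 and 3.93 on the Cre+ and 3.54, 3.68 and 3.68 on the Cre- activated arrays. Like the B cell mean it was highest on Cre+ array 3 and lowest on Cre- array 1. The part of these cells was not tested.

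The 7 B cell markers, like the 9 ligands, read higher on average in Cre+ than in Cre- activated cells. None of the 7 markers passed between activated genotypes, and their differences ran from 0.43 for Blk to 1.38 for Fcer2a with a median of 0.99. The part of B cells in the ligand differences was not tested. Against baseline, 4 of the 7 markers fell in Cre+ activated cells, where 10.6% of all genes fell. In Cre- activated cells 6 of 7 fell, against 9.1% of all genes. The 8 dendritic cell markers averaged 3.57 to 3.84 in Cre+ activated and 3.43 to 3.60 in Cre- activated cells, against 4.81 to 5.51 in Cre+ baseline and 5.0 to 5.42 in Cre- baseline cells. Itgax, which encodes CD11c of dendritic cells, read 3.52 ± 0.25 in Cre+ activated and 3.51 ± 0.13 in Cre- activated cells (SD, n = 3), below the array medians. After activation 5 of the 8 fell in Cre+ and 6 in Cre- cells, against 10.6% and 9.1% of all genes. None passed between activated genotypes, with differences from -0.13 for Clec9a to 0.51 for Zbtb46. Zbtb46, a transcription factor of classical dendritic cells, read 4.81 ± 0.28 in Cre+ activated and 4.30 ± 0.23 in Cre- activated cells, with 4.46 ± 0.14 in Cre+ baseline and 4.39 ± 0.24 in Cre- baseline cells (limma adjusted p = 0.372 between activated genotypes). Batf3, which classical dendritic cells and activated T cells both express, read 4.14 ± 0.44 in Cre+ activated and 3.88 ± 0.36 in Cre- activated cells. The part of dendritic cells was not tested. The mean of the 6 NK cell markers ran from 4.27 to 4.67 in Cre+ activated and from 3.82 to 4.05 in Cre- activated cells. None of the 6 passed between activated genotypes, with differences from 0.07 for Klrb1c to 1.48 for Eomes. The part of NK cells in the genotype differences was not tested. The mean of 19 cell cycle genes was 7.48, 6.82 and 8.83 on the Cre+ and 6.88, 6.88 and 9.18 on the Cre- activated arrays. It was highest on array 3 of both genotypes, and lowest on Cre+ array 2 and, barely, on Cre- array 1. In each genotype Ccl17, Ccl22, Cxcl10 and the B cell mean had the same highest and lowest array. Over the 6 activated arrays together, the rank of the cell cycle mean matched that of the B cell mean on 0 of 6. The part of the cell cycle in these orders was not tested. Without both arrays numbered 3, the activation calls of Ccl1, Ccl3, Ccl4, Ccl22, Xcl1 and Cxcl10 stood in both genotypes, as did those of Ccl9 and Ccl17 in Cre+ cells.

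**Figure D4:**
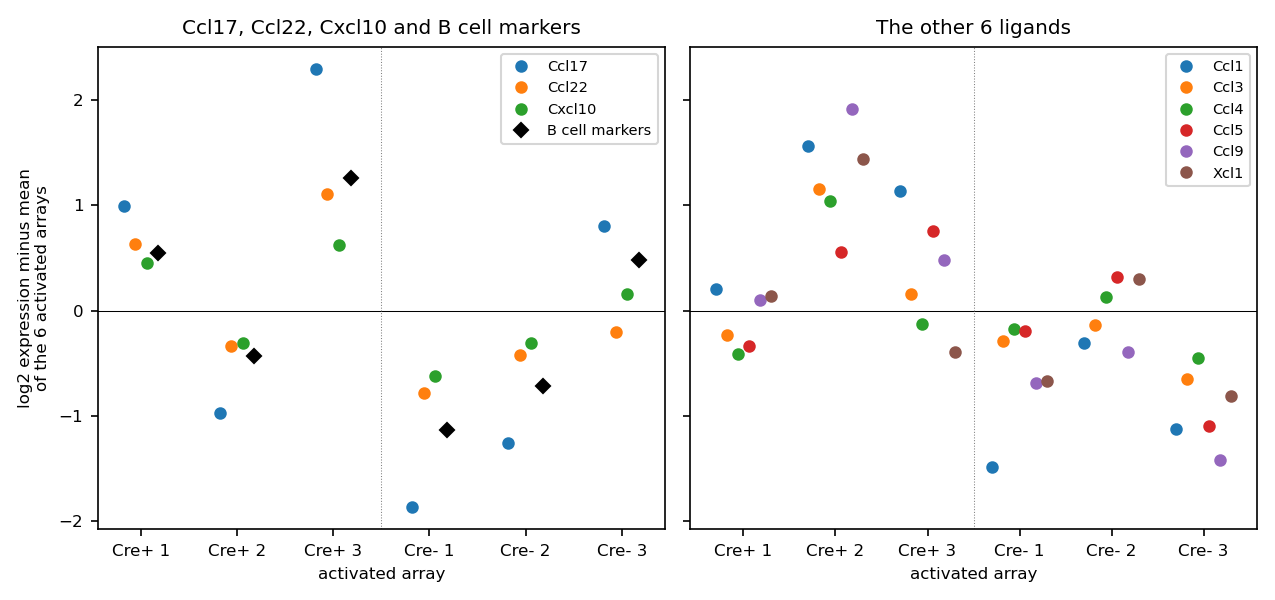
Log2 expression minus the item's own mean over the 6 activated arrays (y axis) on each activated array (x axis, Cre+ arrays left of the dotted line). In the left panel Ccl17, Ccl22 and Cxcl10 follow the B cell marker mean (black diamonds), lowest on array 2 among the Cre+ arrays, where Ccl1, Ccl3, Ccl4, Ccl9 and Xcl1 are highest in the right panel.

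Few other chemokine ligands moved on activation, although the 9 were chosen with such results known. Of 27 other ligands measured, 1 rose and 1 fell in Cre+ cells, where 10.1% of all genes rose and 10.6% fell. In Cre- cells none rose and 1 fell, against 9.39% and 9.1% of all genes. The medians of the 27 were 0.05 and 0.00. Most of the 27 had all 4 group means below every array median, so their lack of change says little. Cx3cl1 (fractalkine), whose gene lies between Ccl22 and Ccl17, rose in Cre+ cells, at 4.37 ± 0.43 in Cre+ activated against 3.67 ± 0.06 in Cre+ baseline cells (SD, n = 3), 0.70 ± 0.19 on the log2 scale (SE, limma adjusted p = 0.0212). In Cre- cells Cx3cl1 differed by -0.03 (limma adjusted p = 0.955). Ccl6, which lies between Ccl9 and Ccl3 and is known from myeloid cells, fell by 0.61 in Cre+ and by 0.89 in Cre- cells on the log2 scale (limma adjusted p = 0.0139 and 0.00190), from group means below every array median. None of the 27 passed between genotypes in either state, where 0.729% of all genes passed after activation and 0.552% at baseline. After activation their differences ran from -0.18 for Ppbp to 0.73 for Cx3cl1.

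**Figure D5:**
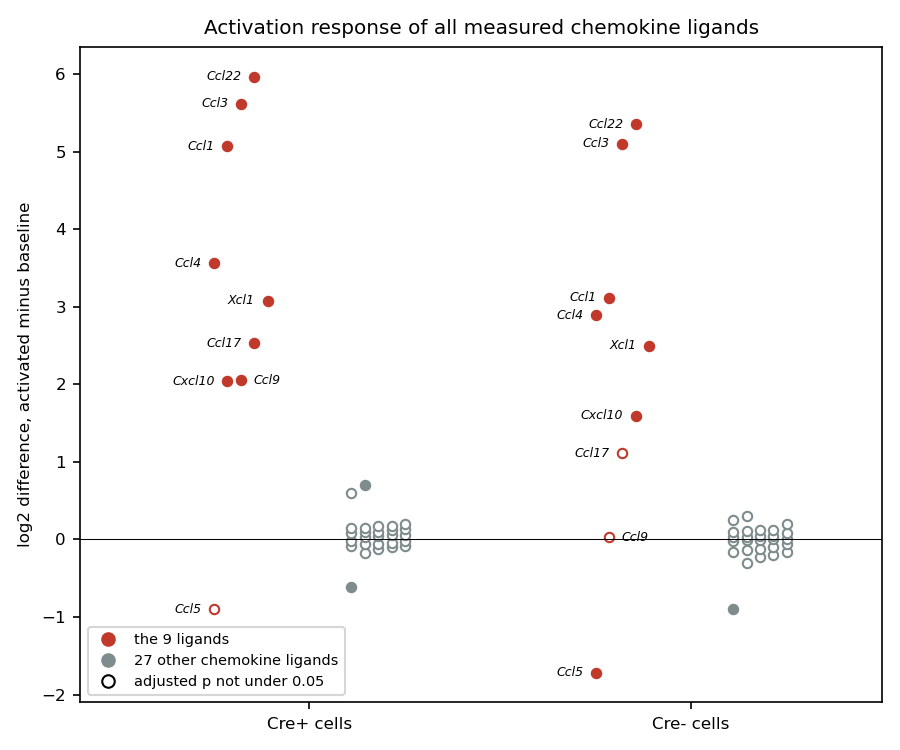
Log2 difference, activated minus baseline (y axis), in Cre+ and Cre- cells for the 9 ligands (red, named) and 27 other chemokine ligands (grey), with open points where the limma adjusted p was not under 0.05. The grey points lie between -0.89 and 0.70, while 8 red points in Cre+ cells lie above 2.

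Among 7 receptors of these ligands, Ccr8 and Ccr4 rose with activation in both genotypes and Cxcr3 and Ccr3 fell. Ccr8, the CCL1 receptor, read 7.45 ± 0.08 in Cre+ activated and 5.22 ± 0.07 in Cre+ baseline cells, 2.23 ± 0.17 on the log2 scale (SE, limma adjusted p = 6.7e-06), and differed by 2.78 in Cre- cells (limma adjusted p = 1.5e-06). Ccr4, the receptor of CCL17 and CCL22, rose by 1.32 in Cre+ and 1.92 in Cre- cells (limma adjusted p = 0.00167 and 0.000150). Cxcr3, the CXCL10 receptor, fell, at 6.92 ± 0.48 in Cre+ activated and 8.02 ± 0.13 in Cre+ baseline cells, -1.11 ± 0.22 on the log2 scale (SE, limma adjusted p = 0.00380), and with -1.28 in Cre- cells (limma adjusted p = 0.00181). Ccr3 fell in both genotypes and Xcr1 in Cre- cells, from group means below every array median. In all, 2 of the 7 receptors rose and 2 fell in Cre+ cells, against 10.1% and 10.6% of all genes. In Cre- cells 2 rose and 3 fell, against 9.39% and 9.1%. No receptor passed between genotypes in either state, where the differences ran from -0.31 for Ccr4 to 0.35 for Cxcr3 after activation.

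Likeness of pattern was measured as the root mean square (RMS) difference between the log2 values of a pair of genes over the 12 arrays, each gene taken from its own mean, among 18718 named protein-coding genes outside the 9. Il2, the growth factor of activated T cells, was the nearest to Ccl22 (RMS 0.41) and to Ccl3 (0.72), and Ifng was among the nearest 3 of Ccl1 (0.55), Ccl3 (0.72) and Ccl22 (0.85). The nearest to Ccl1 was Rgs16 (0.51), a regulator of G protein signalling, which averaged 9.64 ± 0.18 in Cre+ activated, 8.61 ± 0.27 in Cre- activated, 5.53 ± 0.30 in Cre+ baseline and 5.44 ± 0.33 in Cre- baseline cells (SD, n = 3). Nupr1, a stress-induced nuclear protein, was the nearest to Ccl9 (0.32), at 5.83 ± 0.54 in Cre+ activated and 4.35 ± 0.18 in Cre- activated cells, with 4.05 ± 0.15 in Cre+ baseline and 4.16 ± 0.08 in Cre- baseline cells. Like Ccl9 it stood apart in the Cre+ activated group alone. The nearest to Ccl5 was the chemokine receptor gene Ccr6 (0.28), which read 3.63 in Cre+ activated and 3.35 in Cre- activated cells, with 4.86 in Cre+ baseline and 5.0 in Cre- baseline cells. The nearest genes were Gbp2 (0.48) and Il13 (0.50) for Ccl4, Eif4ebp1 (0.42) and Cth (0.43) for Xcl1, Spdl1 (0.23) and Bcl2a1b (0.24) for Cxcl10, and Exo1 (0.49) and Il1a (0.55) for Ccl17. Among the 9, Ccl4 and Xcl1 were the closest pair (0.47), followed by Ccl3 and Ccl22 (0.67). These distances are a description over arrays that share groups.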

How the data were processed

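RNA of splenic CD4+ T cells was hybridised to 12 Affymetrix Mouse Gene 2.0 ST arrays, 3 for each of 4 groups taken from the labels. The authors deposited 1 table of log2 values made by RMA with affy 1.36.1 in R 2.15.1, per the submitters' processing notes. The sources used here name neither a chip definition nor a genome build. RMA corrects background, normalizes across arrays and pools the probes of a gene, so small values are compressed and no probe can be checked. Of 25206 probe sets, 23185 pair with 1 gene and 2021 with none in the platform annotation, and none pairs with several. The number of arrays limits the precision.

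The fit, with limma 3.58.1 (R 4.3.3, lmFit and eBayes, 8 residual and 3.55 prior degrees of freedom), held 1 mean for each group and used all 12 arrays. Benjamini-Hochberg adjustment ran over the 23185 genes, with a threshold of 0.05. There were 5 comparisons: genotype after activation, genotype at baseline, activation in Cre+ cells, activation in Cre- cells, and how far these responses differed. The script was tested on simulated data for the comparison of genotypes after activation. It recovered 79% of 100 planted 2-fold and 98% of 100 planted 4-fold differences, with 5 false calls. The 9 ligands and the lists of other ligands, receptors, markers (CD4 T, CD8 T, B, NK, myeloid, dendritic cells) and cell cycle genes were chosen with earlier results of these data known. Named beside the 9 were other ligands and receptors that passed or bounded their list, markers, and the 3 genes with the smallest RMS distance to a ligand. Same-numbered arrays did not deviate together in every pair (r = -0.05, 0.57 and 0.73 between activated genotypes, and -0.03, 0.14 and 0.15 between baseline genotypes), so the main fit has no replicate block. Promoter sequences and gene order came from RefSeq (GRCm38.p6). The alternatives covered blocking, moderation, weights, filters, scaling, arrays used, sex read from Xist and Eif2s3y, a 2-fold minimum and leaving out each array.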

Additional observations from a re-analysis of the deposited data

How the results depend on the processing

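The counts of the 9 ligands that passed were steady in 4 of the 5 comparisons under 24 alternatives (23 for the difference of responses): 0 between genotypes at baseline, 7 to 9 for activation in Cre+, 7 for activation in Cre- and 0 for the difference of responses. Between activated genotypes, where Ccl1 passed, the count was 0 with median centring, quantile normalization, only the arrays compared, or without the activated arrays numbered 3, it was 3 with array weights (Ccl17, Ccl22 and Cxcl10), and it ran from 0 to 1 when 1 array was left out. The cause was not tested. Over all genes, the calls ran from 9 to 2416 between activated genotypes (169 as reported), 50 to 321 at baseline (128), 1683 to 8292 for activation in Cre+ (4795), 1548 to 5909 in Cre- (4287) and 0 to 143 for the difference (2). With array weights the sign turned for Ccl4 (-0.29) and Ccl5 (-0.27) between activated genotypes, and for Ccl3 (-0.11), Ccl5 (-0.085) and Xcl1 (-0.083) in the difference of responses. The Cre- activation difference of Ccl9 turned with 75th percentile scaling (-0.011) and with sex as a covariate (-0.031). With 1 array left out, that difference ran from -0.19 to 0.32, Ccl4 between activated genotypes from -0.10 to 0.63, and at baseline Ccl1 from -0.20 to 0.25 and Cxcl10 from -0.13 to 0.25. The replicate number as a block gave 1, 0, 8, 7 and 0 ligands, the same counts as without it. The activated arrays numbered 2 and 3 of both genotypes correlated in their deviations (r = 0.57 and 0.73) and those numbered 1 did not (r = -0.05). Cre+ activated array 2 correlated as much with Cre- activated array 1 (r = 0.57), so array 2 gives no hint of pairing by number. For array 3 there is a hint from the data and not the design. Ccl17 was not tested under the minimum mean of 5. With 3 arrays a group and no background measure in the table, low readings such as those of Ccl17 and Ccl22 at baseline set a limit on any fold.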
